A study of Homo sapiens with 2 samples.

Results

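A group of 10 genes that encode nucleolar proteins and parts of the RNA polymerase I machinery was examined in K562 cells, a human chronic myelogenous leukaemia line. The 10 genes (NCL, NPM1, FBL, UBTF, POLR1A, POLR1B, RRN3, NOP56, NOP58 and DKC1) were taken by name from the 36814 genes of the table, and each had 1 row. Nascent RNA had been captured by PRO-seq, in which engaged polymerases add biotinylated nucleotides during a short run-on (5 min at 30 °C here) in permeabilised cells. There was 1 library from untreated K562 cells, with 2136291 counted reads, and 1 from K562 cells given 0.1% DMSO, a drug solvent, for 1 h, with 4154920. Each value is the number of reads in a window of 6000 bases centred on the annotated start of a gene in hg38. With 1 library per group no value has a replicate check and no test was possible, and DMSO, library and depth cannot be told apart.

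Ribosome production begins in the nucleolus, where RNA polymerase I copies the ribosomal RNA repeats into a long precursor. UBTF and RRN3 bring the polymerase to the repeats, POLR1A and POLR1B form its catalytic centre, and small nucleolar RNA-protein particles (snoRNPs) then guide chemical marks onto the precursor. FBL, NOP56 and NOP58 are core proteins of the box C/D snoRNPs, DKC1 is the pseudouridine synthase of the box H/ACA snoRNPs, and NCL and NPM1 are abundant nucleolar proteins that act in folding and assembly. These protein genes are themselves transcribed by RNA polymerase II, so the values below are read as polymerase II around their starts, within the limits given for each window. The 4 windows over ribosomal RNA repeats are not among the 10 genes. They took 71.5% of the reads in untreated cells and 42.2% with DMSO, which is why reads scaled to the library total (counts per 1000000 reads, CPM) are not compared between the libraries here. Of 15 erythroid markers, 12 reached 1 CPM in both libraries, against 34.7% of all windows. Among the 12, the HBZ window does not hold its RefSeq start and that of NFE2 has 186 bases of its own. Of the myeloid markers 0 of 7 reached 1 CPM in both libraries, and of the epithelial, fibroblast and hepatocyte markers 3 of 8 (KRT8, KRT18 and APOA1).

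Of the 10 genes, 7 were well read at their starts, and the other 3 could not be judged from these windows. NOP56, NPM1, DKC1, NOP58, FBL, POLR1B and RRN3 passed the expression floor, set at a mean CPM of 5 and a sum of 100 reads, that 17.9% of all windows passed. At the median window past the floor 4.72 DMSO reads fell per untreated read, so a weakly read gene passes more readily when its DMSO count is high. Reads at 1 CPM or more in both libraries were found for these 7 genes and for the NCL window, against 34.7% of all windows. NPM1 stood out in the comparison of the libraries, with 2.58-fold more DMSO reads relative to the median window. The other 6 genes lay within 1.43-fold of it.

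What each window holds decides what its reads can mean. Reads in bases that 2 windows share were not counted for either gene: all 1154 windows whose every base is shared held 0 reads, and 321 of them are shared only with windows of the opposite strand. The window of POLR1A, the largest subunit of polymerase I (chromosome 2, 86103156 to 86109155, minus strand), shares 5933 bases with that of PTCD3, a mitochondrial ribosome gene. It had 67 bases of its own, far downstream of the start, and 0 reads in each library, which at a bound of 3 reads allows up to 1.40 CPM in the untreated and 0.722 CPM in the DMSO library. The window of UBTF, which binds along the ribosomal RNA repeats (chromosome 17, 44218627 to 44224626, minus strand), shares 5774 bases with the window of AC003102.1. Its 226 own bases lie upstream of the UBTF start, and they held 1 untreated and 6 DMSO reads. The window named NCL (chromosome 2, 231480642 to 231486641, minus strand) has no base in common with another window but lies 19157 bases upstream of the RefSeq start of nucleolin when centre and start are compared. It overlaps the lncRNA LOC107985998, held 9 untreated and 23 DMSO reads, and no window of the table covers the RefSeq start of NCL. The reads of these 3 rows therefore do not give the transcription of POLR1A, UBTF and NCL at their starts, and a low count there was not read as a low level.

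**Figure D1:**
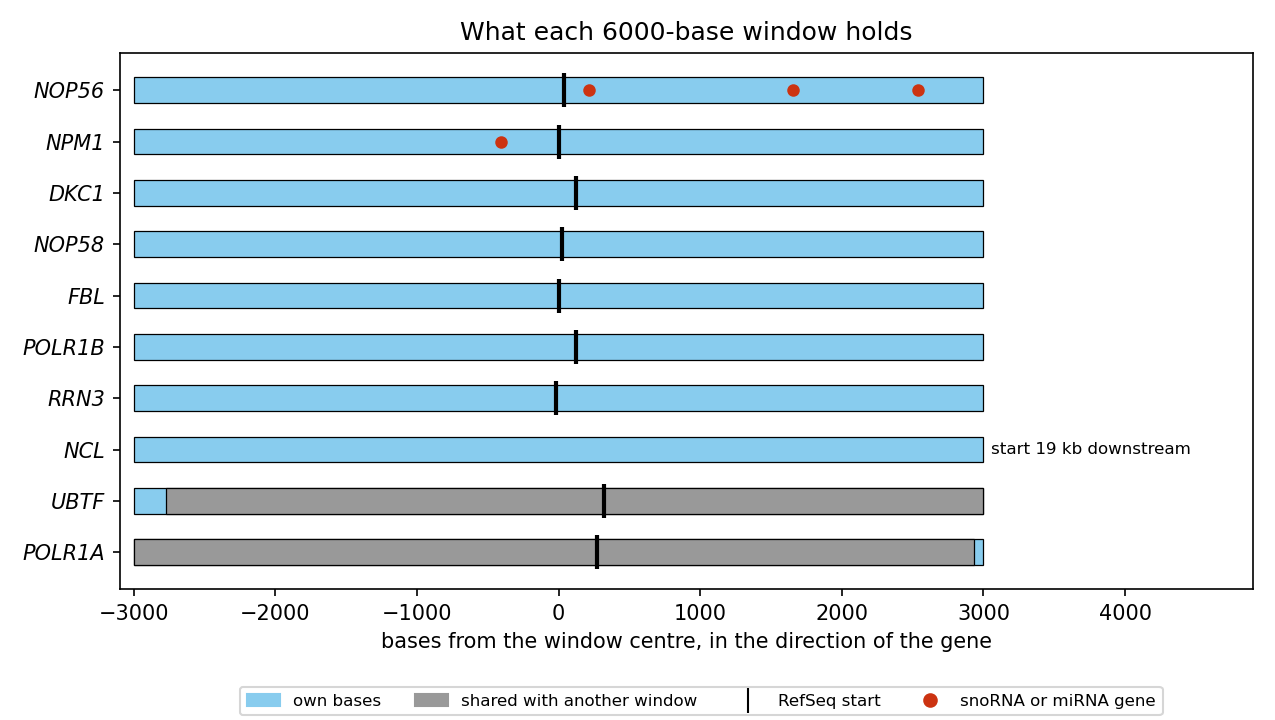
Map of the 10 windows, with the distance from the window centre in bases on the horizontal axis, in the direction of the gene; blue bases belong to the window alone, grey bases are shared with another window, black ticks mark the RefSeq start and red dots a snoRNA or miRNA gene. UBTF keeps 226 and POLR1A 67 bases of their own, the RefSeq start of NCL lies outside its window, and the NOP56 window alone holds snoRNA genes.

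The windows of the 7 genes past the floor have all 6000 bases to themselves and hold the RefSeq start, at most 122 bases from the centre. Those of FBL, NOP58 and DKC1 hold no other RefSeq gene. Reads were not separated by strand in the shared bases, so a neighbour on either strand may add to a window. The NOP56 window also holds SNORD110, SNORA51 and MIR1292 within NOP56 itself and part of the lncRNA LOC105372505 upstream. Stable snoRNAs and nascent RNA were not told apart in these counts. The NPM1 window holds MIR3912, just upstream of the start. The POLR1B window overlaps TTL and the lncRNA LOC105373562, and that of RRN3 lies inside PDXDC1 as RefSeq annotates it and overlaps the lncRNA LOC100505915. The part of these neighbours in the counts was not tested.

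The start sequences of 4 genes are shown because NPM1 and NOP56 held the most reads, and those of FBL and DKC1 hold one of the motifs searched. Each runs from 150 bases before to 30 bases after a RefSeq start (GRCh38.p14, from RefSeq), 5′ to 3′ on the strand of the gene, with motif matches in capitals. NPM1 has 2 RefSeq starts in the window, the one at the window centre (chr5:171386966-171387145, plus strand) and one 733 bases downstream (chr5:171387699-171387878, plus strand). The others are NOP56 (chr20:2652482-2652661, plus strand), FBL (chr19:39846350-39846529, minus strand) and DKC1 (chrX:154762714-154762893, plus strand).
NPM1, start at the window centre: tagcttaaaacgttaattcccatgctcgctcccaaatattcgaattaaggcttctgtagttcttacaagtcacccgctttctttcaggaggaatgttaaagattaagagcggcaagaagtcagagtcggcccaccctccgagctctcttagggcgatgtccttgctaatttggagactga
NPM1, downstream start: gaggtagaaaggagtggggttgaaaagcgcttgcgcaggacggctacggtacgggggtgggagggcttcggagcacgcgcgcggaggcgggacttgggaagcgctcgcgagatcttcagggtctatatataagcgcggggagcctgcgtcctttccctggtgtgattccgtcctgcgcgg
NOP56: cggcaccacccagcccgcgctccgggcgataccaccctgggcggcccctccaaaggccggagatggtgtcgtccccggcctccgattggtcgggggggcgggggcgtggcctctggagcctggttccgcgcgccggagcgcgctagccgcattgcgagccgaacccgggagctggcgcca
FBL: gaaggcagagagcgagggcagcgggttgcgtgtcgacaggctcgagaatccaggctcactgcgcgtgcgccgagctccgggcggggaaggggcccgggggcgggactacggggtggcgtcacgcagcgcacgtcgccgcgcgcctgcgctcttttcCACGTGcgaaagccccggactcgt
DKC1: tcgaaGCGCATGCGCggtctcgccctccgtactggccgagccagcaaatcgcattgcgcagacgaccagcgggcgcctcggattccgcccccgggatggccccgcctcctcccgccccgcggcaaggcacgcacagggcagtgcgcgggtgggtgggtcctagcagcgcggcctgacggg

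Promoters of 8 of the 10 genes were read from 250 bases before to 50 after a RefSeq start, using the entry of the promoter table in the window that lies nearest to its centre, which for UBTF is 744 bases away and is not its outermost RefSeq start (322 bases). For NOP58 and NCL no entry in the window was found. Among the 8, the E-box CACGTG was found in FBL, starting at base 7 of the transcript, against 11.5% of the 3843 promoters of windows past the floor and 7.26% of all 35116 promoters. The NRF1-like motif GCATGCGC was found in DKC1 as a pair of overlapping matches on opposite strands, starting 145 and 143 bases before the start (5.88% of promoters past the floor and 3.05% of all). The ETS-like motif CCGGAAGT was found in RRN3 at base 26 of the transcript (8.59% and 4.14%). Neither the YY1-like AAGATGGC (5.59% and 2.89%) nor the TATA box TATAAA (5.00% and 11.5%) was found in these 8 promoters. The downstream NPM1 start was not one of the 8. Both strands were searched, and a match is a description of letters, not of a bound site. The share of G and C ranged from 44.7% at POLR1A to 76.3% at NOP56, with a median of 65.7% over the 8 promoters and 66.3% over those of windows past the floor. The NPM1 sequence at the window centre had 47.7%, below all but 3.38% of the promoters past the floor, and that at the downstream start 66.0%. The window counts do not tell the NPM1 starts apart.

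Levels spanned a wide range among the 7 genes. NOP56, a scaffold protein of the box C/D snoRNP (chromosome 20, 2649593 to 2655592), had 165 untreated reads (95% counting interval 141 to 192) and 1113 DMSO reads (1049 to 1180). Per kb of own bases its mean level was 28.8 CPM, and per window it stood at percentile 99.3 of the 29285 windows with a read. NPM1, a nucleolar chaperone also called nucleophosmin (chromosome 5, 171384116 to 171390115), had 64 untreated (49.3 to 81.7) and 780 DMSO reads (726 to 837), with a mean level of 18.1 CPM per kb. NOP56 was thus higher than NPM1 in each library, with intervals that did not overlap.

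DKC1, the enzyme of the H/ACA particles and a part of telomerase (X chromosome, 154759742 to 154765741), had 62 untreated and 324 DMSO reads, a mean level of 8.92 CPM per kb. NOP58, the partner of NOP56 in the box C/D particle (chromosome 2, 202262736 to 202268735), had 59 and 229 reads, or 6.89 CPM per kb. FBL, or fibrillarin, the methyltransferase of that particle (chromosome 19, 39843380 to 39849379), had 42 and 222 reads, or 6.09 CPM per kb. The 3 core proteins of 1 particle were therefore read unequally, NOP56 at the highest level and FBL at the lowest, and NOP58 and FBL had overlapping intervals in each library. POLR1B, the second-largest polymerase I subunit (chromosome 2, 112538915 to 112544914), had 43 and 211 reads, or 5.91 CPM per kb. RRN3, the factor that makes polymerase I competent to initiate (chromosome 16, 15091318 to 15097317), had 17 untreated (9.90 to 27.2) and 115 DMSO reads (94.9 to 138), or 2.97 CPM per kb.

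In the untreated library the order was NOP56, NPM1, DKC1, NOP58, POLR1B, FBL and RRN3, and only the step from NOP56 to NPM1 and that from FBL to RRN3 had intervals that did not overlap. In the deeper DMSO library the steps from NOP56 to NPM1, from NPM1 to DKC1 and from DKC1 to NOP58 had intervals that did not overlap. The intervals of NOP58, FBL and POLR1B overlapped from each to the next, and RRN3 lay below them with no overlap. All intervals cover counting error only. In all, the 10 windows held 462 untreated and 3023 DMSO reads, or 0.0879% and 0.134% of the reads outside ribosomal RNA and mitochondrial windows. NOP56 gave 35.7% and 36.8% of these reads, and NPM1 13.9% and 25.8%.

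**Figure D2:**
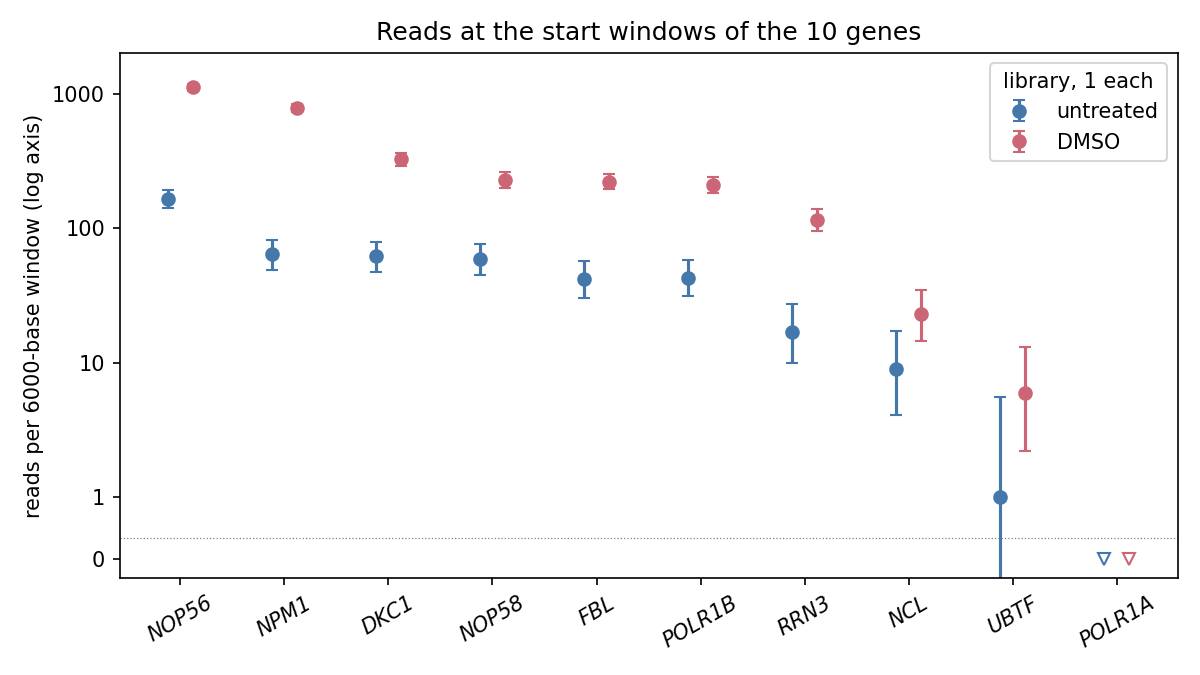
Reads per 6000-base window (log axis, with 0 drawn below the dotted line as open triangles) for the 10 genes, ordered by mean CPM, in the untreated library (blue) and the DMSO library (red); bars are exact 95% Poisson intervals for counting error, and the triangles at 0 carry none. Reads run from 165 and 1113 at NOP56 down to 0 and 0 at POLR1A, and the last 3 genes are those whose windows do not show their start.

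The comparison of the 2 libraries asks how far cells in a drug solvent resemble untreated cells. Ratios are given as log2 DMSO/untreated after TMM scaling, relative to the median of the 6591 windows past the floor, at which 4.72 DMSO reads fell per untreated read. NPM1 stood at 1.37, with an interval of 1.00 to 1.76 that begins at the 2-fold mark of 1. It lay above 97.2% of windows past the floor. Ratios of 2-fold or more upward were found at 7.04% of these windows and downward at 7.97%, and 1.41% and 2.78% had intervals wholly past 2-fold. The lower bound for NPM1 was 0.88 at a floor of 20 CPM and 400 reads and 0.98 relative to windows without shared bases. It was also 0.88 relative to windows of like read count, an alternative chosen after the data were seen. With every window that had a read as reference NPM1 stood at 0.97 (0.61 to 1.37), under 2-fold.

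The other 6 genes were not 2-fold apart. NOP56 stood at 0.52 (interval 0.28 to 0.76), which is 1.43-fold higher than the median window and above 78.5% of windows. Its interval did not overlap that of NPM1. RRN3 stood at 0.51, but its few reads gave a wide interval of -0.22 to 1.35. FBL stood at 0.16 (-0.32 to 0.68), DKC1 at 0.15 (-0.25 to 0.56) and POLR1B at 0.06 (-0.42 to 0.57). These 3 genes lay within counting error of the median window. NOP58 was the one gene below it, at -0.28 (-0.70 to 0.16), an interval that includes 0 and does not overlap that of NOP56, its partner.

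The median of the 7 genes was 0.16, against 0 over all windows past the floor, and 6 of the 7 lay above the median window. That side depends on the reference: relative to every window with a read, the median was -0.23 over the 9 genes with a read, and FBL (-0.23), DKC1 (-0.25) and POLR1B (-0.34) stood below 0. The floor bears on that side too, since its sum of reads is mostly DMSO reads and a weakly read gene such as RRN3 passes more readily with a high ratio. Of the 7, 1 was at least 2-fold higher, NPM1, and 0 were 2-fold lower. Like ratios were common: 103 other windows past the floor lay within 0.1 of the ratio of NPM1, 581 within 0.1 of NOP56 and 839 within 0.1 of POLR1B, so no gene was named as having a like pattern. The other nucleophosmin family gene past the floor, NPM3, had 42 untreated and 224 DMSO reads and stood at 0.18 (-0.30 to 0.69), below NPM1 with no overlap of the intervals. Related rows under the floor were FBLL1, a relative of fibrillarin, with 4 and 22 reads, and the pseudogene RRN3P2 with 2 and 21. Reads shared between near-identical copies may be split, and levels of RRN3 and NPM1, which have pseudogene copies, are uncertain to that extent.

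**Figure D3:**
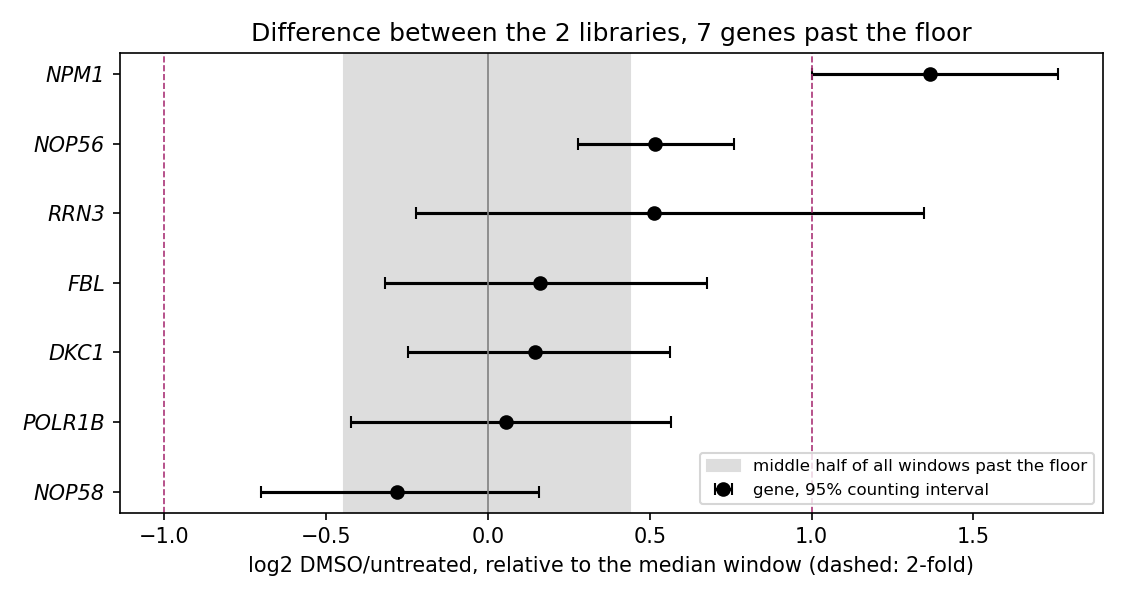
Log2 DMSO/untreated ratio relative to the median window for the 7 genes past the floor, as points with 95% counting intervals; the grey band is the middle 50% of all windows past the floor (-0.44 to 0.44) and dashed lines mark 2-fold. NPM1 at 1.37 lies past 2-fold, and NOP58 at -0.28 is the one gene below the median window.

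Other genes of polymerase I gave little to compare, because many of their windows are shared. Of 13 subunit genes, POLR1A and POLR1B included, 7 had under 1 kb of their own, 4 passed the floor and 0 were 2-fold apart. POLR2E, a subunit common to the 3 nuclear polymerases, had 38 untreated and 288 DMSO reads and stood at 0.68 (0.19 to 1.21). POLR1E had 31 and 182 reads (0.31), and POLR1C 20 and 81 (-0.22) in 985 own bases of a window without its RefSeq start. TWISTNB, the older name of POLR1F, fell just under the floor with 8 and 91 reads. ZNRD1, now POLR1H, had 10 and 33 reads, POLR2K 14 and 59, and POLR2L 12 and 41 in 282 own bases. POLR1D and POLR2H had 0 untreated reads and 1 DMSO read each, and CD3EAP, now POLR1G, and POLR2F had 0 in both libraries, all 4 in windows with at most 212 own bases.

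Of 8 initiation and termination factors, UBTF and RRN3 included, 3 passed the floor and all 3 lay above the median window without reaching 2-fold. The floor favours high DMSO counts, so the side of weakly read genes such as RRN3 is not independent of it. Besides RRN3 these were 2 subunits of SL1, the factor that recognises the ribosomal RNA promoter: TAF1C with 28 and 176 reads (0.41) and TAF1B with 35 and 184 (0.15). TTF1, the terminator protein, had 6 and 45 reads and TBP 6 and 9 in 994 own bases. TAF1D had 1 and 3 reads in 165 own bases of a window without its RefSeq start, and TAF1A 0 and 2 in 109 own bases. Among subunits found only in polymerase III, 6 of 11 passed the floor with a median of 0.34 and 0 were 2-fold apart.

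Of the snoRNP genes, 5 of 11 in the box C/D list and 3 of 6 in the H/ACA list passed the floor. No ratio is given for the rest. Among those past the floor, NOP56 (0.52) and NHP2 (-0.91) had intervals that excluded 0, on opposite sides of the median window. The intervals of the others past the floor included 0. Beside FBL, NOP56 and NOP58, the box C/D list of 11 had 2 more genes past the floor, SNU13, the fourth core protein, with 38 and 171 reads (-0.07) and the assembly factor ZNHIT6 with 30 and 109 (-0.38). In the H/ACA list of 6, NHP2, a core protein, had 109 and 274 reads and stood at -0.91 (-1.23 to -0.57), below DKC1 with no overlap of intervals. NAF1, an assembly factor, had 30 and 152 reads (0.10). GAR1 and NOP10, the other core proteins, had 0 or 1 read in windows with 99 and 0 own bases, so DKC1 could be set against NHP2 only.

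Nucleolar scaffold and chaperone genes spanned the widest range of the lists, from -1.08 to 1.37. Of 12 genes, 8 passed the floor: NPM1 and TCOF1 were at least 2-fold higher and NOP53 at least 2-fold lower. TCOF1, or treacle, a nucleolar phosphoprotein that binds polymerase I, had 24 and 271 reads and stood at 1.25 (0.66 to 1.93). The TCOF1 window also overlaps LOC105378226. NOP53, a ribosome assembly factor in a window that also overlaps EHD2, had 170 and 378 reads and stood at -1.08 (-1.35 to -0.82). DDX21, a nucleolar helicase, had the most reads of the list, 173 and 761, and stood at -0.10.

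Processing factors of the ribosomal subunits were likewise spread on either side. Of 51 small subunit factors 18 passed the floor, with a median of 0.13 and 14 above the median window; the acetyltransferase gene NAT10 led by reads with 174 and 960 (0.23), WDR43 was highest at 1.04 (0.56 to 1.57) and UTP6 lowest at -0.73, and NOB1 stood at 0.09. Of 47 large subunit factors 19 passed, with a median of -0.09 and 8 above it. NOP2, an rRNA methyltransferase, had 117 and 806 reads (0.55), SURF6 135 and 575 (-0.15), NOC2L 11 and 116 (1.14, interval 0.27 to 2.20) and GNL3L 35 and 78 (-1.08, interval -1.67 to -0.46). The NOC2L window has 1274 own bases and also overlaps KLHL17. Of 14 exosome genes 3 passed, EXOSC9 (0.56), EXOSC2 (0.51) and EXOSC6, whose window overlaps AARS1, with 677 and 1199 reads and -1.41 (-1.55 to -1.28). EXOSC9 (13 and 91 reads) and NOC2L had few untreated reads and passed a floor that favours high DMSO counts. EXOSC6 was the one gene of these lists beside NPM1 with an interval wholly past 2-fold.

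Over the 8 lists without the 10 genes, 56 of 152 genes passed the floor, 3 were at least 2-fold higher and 3 at least 2-fold lower, and their median was 0.12 with quartiles of -0.18 and 0.40. Over all windows past the floor the quartiles were -0.44 and 0.44. Of 79 cytosolic ribosomal protein genes 43 passed, with a median of 0.09, 0 at least 2-fold higher and 1 at least 2-fold lower. The 7 nucleolar and polymerase I genes past the floor, with a median of 0.16, were thus near these lists, and the difference between the lists was not tested. Relative to every window with a read, the medians were -0.44 for ribosomal protein genes and -0.18 for the subunits of polymerase III. These cover the 67 and 8 genes with a read, those under the floor included, so both the reference and the genes differ. All 7 of the 15 erythroid markers that passed the floor lay below the median window, with a median of -0.54 and 2 at least 2-fold lower, HBG1 (-1.15) and GYPC (-1.06). The 15 markers summed to 1258 untreated and 3613 DMSO reads, and HBE1, whose window has 0 own bases, was at 0 in both libraries. Their part in the ratios of the 10 genes was not tested.

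**Figure D4:**
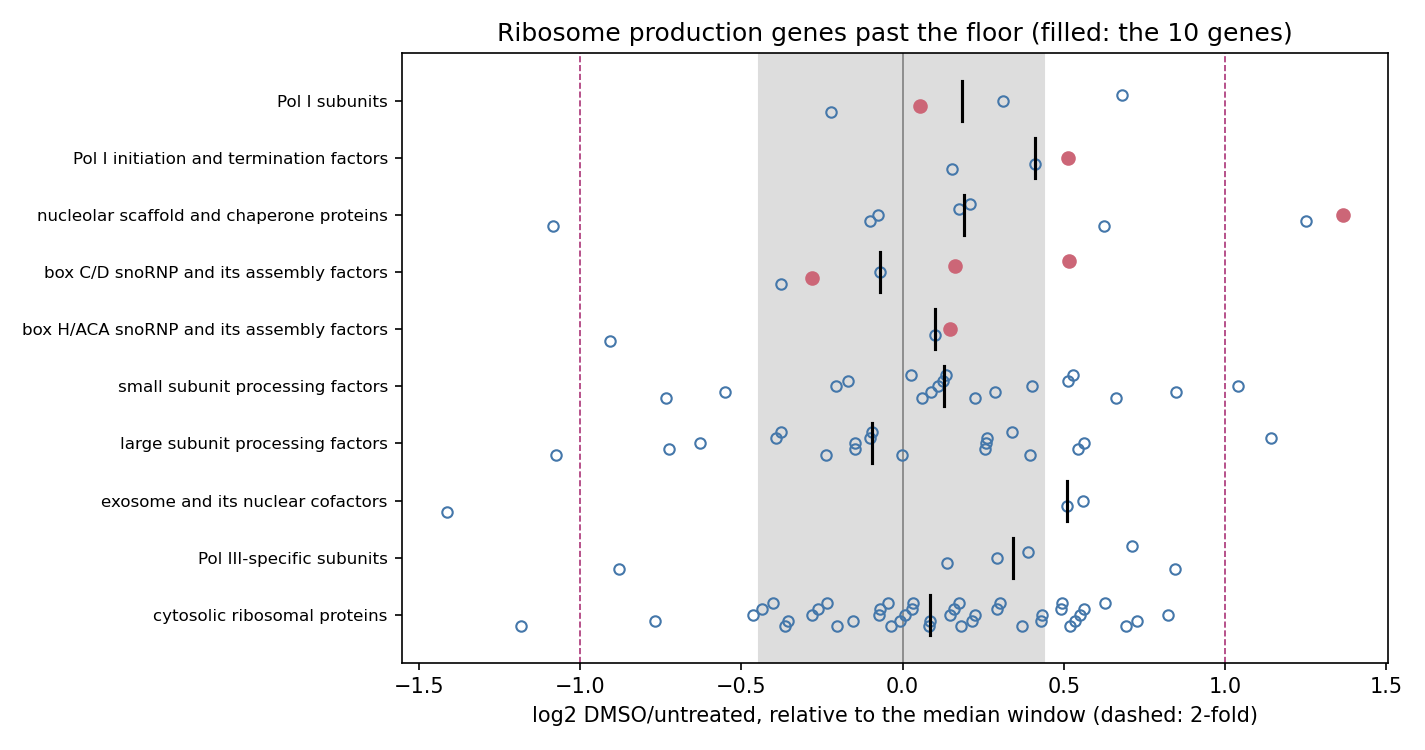
Log2 DMSO/untreated ratio relative to the median window for each gene past the floor (circles) in the ribosome production lists, polymerase III subunits and ribosomal proteins; filled red circles are the genes among the 10, black bars the list medians, the grey band the middle 50% of all windows past the floor and dashed lines 2-fold. NPM1 and TCOF1 lie past 2-fold to the right and NOP53 to the left in the scaffold list, and list medians lie between -0.09 and 0.51.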

How the data were processed

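PRO-seq libraries of K562 cells, 1 untreated and 1 in DMSO, were analysed from 1 deposited table. Per the submitters' processing notes, Bowtie2 2.3.5, featureCounts 2.0.1 and the build hg38 were used; filters are not given in the sources used here. The authors deposited raw read counts per window, and TPM that equalled CPM in all 36814 windows (tolerance 1e-06) and were not used further. Neighbouring genes and starts came from the RefSeq table of GRCh38.p14.

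CPM (counts scaled to the library total) were computed from the counts. Ratios used TMM factors of edgeR 4.0.16 (R 4.3.3; no edgeR test was run) and a prior of 0.5 reads shared out by effective library size, and were centred on the median window past the floor (0.31 before centring, 1.27 with library totals). Intervals at 95% are exact, Poisson for counts and Clopper-Pearson for ratios, and cover counting error only, with each read taken as independent. No molecular identifier was used here to find duplicate reads, which would make these intervals too narrow. A count of 0 is bounded at 3 reads. Median reads past the floor were 45 (untreated) and 205 (DMSO). The ratio step was tested on simulated data.

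The 10 genes and the gene lists were chosen with earlier results of these data known. Named were the 10 genes, all polymerase I subunits and factors, and from each other ribosome production list the 2 genes of most reads, the highest and lowest ratio and any interval wholly past 2-fold. One further marker list is not reported here. NPM3, FBLL1, RRN3P2, HBG1, GYPC and HBE1 were added after values were seen. Alternatives covered scaling, centring, the floor, the prior, thinning of the DMSO library, the fold threshold and the level measure (DESeq2 1.42.0 gave size factors only).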

Additional observations from a re-analysis of the deposited data

Results flagged for a closer look

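The 4 windows over ribosomal RNA repeats on chromosome 21, the template of polymerase I, lie outside the comparisons of gene starts. They held 1526750 untreated reads (71.5% of the library) and 1751307 DMSO reads (42.2%). Against the median window past the floor their log2 DMSO/untreated ratio was -2.04, or 4.11-fold lower with DMSO. Single windows stood between -2.11 and -1.96. Mature ribosomal RNA was not separated from nascent RNA in these counts, the repeats are near-identical, and the part of either in the difference was not tested. Outlying replicates and differences between groups could not be looked for with 1 library per group.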

How the results depend on the processing

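No paired analysis was possible because there is a single library for either condition, and no replicate could be left out. The median ratio of the genes past the floor (0.16 over 7) was 0.82 at a floor of 20 CPM and 400 reads, which only NOP56 and NPM1 pass, and 1.44 with library totals and no centring, where 6 of 7 genes lay past 2-fold; under the latter the ribosome production genes named below 0 changed sign except EXOSC6 (-0.14): GNL3L (0.19), NHP2 (0.37), NOP53 (0.19) and UTP6 (0.54), whose intervals had excluded 0, and NOP58 (0.99), DDX21 (1.18), POLR1C (1.05), SNU13 (1.20), SURF6 (1.13) and ZNHIT6 (0.89). With library totals and no centring, 4352 of all 6591 windows past the floor were at least 2-fold higher and 31 at least 2-fold lower. NOP58 was also above 0 with TMM and no centring (0.03), and POLR1B below it relative to windows of like read count (-0.04). The median percentile of level (89.2) was 85.8 per kb of own bases. With any read as floor, the 1 gene past 2-fold was the NCL window (-1.26) in place of NPM1 (0.97). Of the 29285 windows with a read, 8109 were then at least 2-fold higher and 7368 at least 2-fold lower. The NCL window held 9 untreated and 23 DMSO reads and does not hold the RefSeq start of NCL. Added after seeing the data were library totals without centring and windows of like read count. Centring subtracts 1 value from every window: 1.27 with library totals, 0.31 with TMM and 0.70 with any read as floor. The sign changes without centring are that shift, and a higher floor leaves fewer genes. The cause of other differences was not tested. Of the 7 genes, depth limits RRN3 most, with 17 untreated reads.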
